A study of Mus musculus with 24 samples.

Results

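The response of Hsf1-/- mice to heat shock (HS) was compared with their response to HSP990, an inhibitor of the chaperone HSP90. The members were the libraries of the 8 Hsf1-/- mice among the 24 mice of the series, taken by the genotype and treatment in their labels. RNA of quadriceps femoris muscle was sequenced 4 h after treatment, with 2 mice in each of 4 groups on a mixed CBA and C57BL/6 background. In the HS group, aged 10 weeks, the core temperature was held at 41.5 °C for 15 min under isoflurane, and the control group of the same age was anaesthetised likewise and held at 36.9 °C for 21 min. The HSP990 group, aged 8 weeks, received 12 mg/kg by mouth, suspended in methyl cellulose and saline. The vehicle group, also 8 weeks old, was given saline by mouth, with no methyl cellulose named in its label. All 8 mice, treated and untreated, were labelled Hsf1-/-, and the HSF1 protein was not measured here. The other 16 mice, all 12 weeks old, were wild type (WT) or R6/2, a Huntington disease model, with 2 mice of each genotype under each of the 4 treatments. WT mice are compared at the end. R6/2 mice entered the choice of genes tested, the scaling of libraries and the estimate of spread, and are not compared. The difference of responses was the log2 fold change of HS over control minus that of HSP990 over vehicle. The 4 groups shared no mouse, and age, anaesthesia and the route of treatment went with the treatment and cannot be told apart from it.

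HSF1 is the transcription factor that induces chaperone genes when proteins unfold, and HSP90 holds it inactive, so that heat and HSP90 inhibitors both release it. Without HSF1, other stress pathways may still be seen. One is the integrated stress response, in which the transcription factor ATF4 raises genes of amino acid transport, amino acid and folate metabolism and tRNA charging. Another is the glucocorticoid receptor, itself a client of HSP90, which in muscle raises genes of fuel choice and protein breakdown.

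Promoter windows are printed for Trib3, with the largest difference among called genes, and for Kcna5 and Adgrg1. The latter were called with the higher change after HS and hold a glucocorticoid element. Fgf21 and Aars are printed because they rose after HSP990 and hold an ATF4-C/EBP element, but their differences of responses were not called. Each window is the 250 bases before the start of the RefSeq gene, 5′ to 3′ on the strand of the gene, in the GRCm38.p6 build, and capitals mark the element. Trib3 lies at chr2:152344061-152344310 (minus strand), Fgf21 at chr7:45615491-45615740 (minus), Aars at chr8:111033592-111033841 (plus), Kcna5 at chr6:126535556-126535805 (minus) and Adgrg1 at chr8:94976859-94977108 (plus).
Trib3: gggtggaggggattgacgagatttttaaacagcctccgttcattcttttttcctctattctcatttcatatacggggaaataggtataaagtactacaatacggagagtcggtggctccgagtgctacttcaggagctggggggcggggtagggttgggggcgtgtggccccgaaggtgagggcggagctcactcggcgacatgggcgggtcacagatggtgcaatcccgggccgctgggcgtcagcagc
Fgf21: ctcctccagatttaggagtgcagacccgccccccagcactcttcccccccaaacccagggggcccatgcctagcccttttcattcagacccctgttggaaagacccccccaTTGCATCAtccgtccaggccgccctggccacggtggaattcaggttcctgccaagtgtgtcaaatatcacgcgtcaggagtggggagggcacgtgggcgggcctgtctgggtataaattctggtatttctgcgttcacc
Aars: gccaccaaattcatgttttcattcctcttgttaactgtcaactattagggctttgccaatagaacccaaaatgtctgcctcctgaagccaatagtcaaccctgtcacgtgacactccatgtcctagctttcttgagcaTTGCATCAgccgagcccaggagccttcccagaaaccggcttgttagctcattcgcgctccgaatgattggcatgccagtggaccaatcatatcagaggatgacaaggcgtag
Kcna5: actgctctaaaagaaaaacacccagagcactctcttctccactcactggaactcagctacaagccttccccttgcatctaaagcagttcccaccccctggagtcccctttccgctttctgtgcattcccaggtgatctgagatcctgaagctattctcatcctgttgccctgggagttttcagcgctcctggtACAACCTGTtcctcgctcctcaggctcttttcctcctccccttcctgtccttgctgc
Adgrg1: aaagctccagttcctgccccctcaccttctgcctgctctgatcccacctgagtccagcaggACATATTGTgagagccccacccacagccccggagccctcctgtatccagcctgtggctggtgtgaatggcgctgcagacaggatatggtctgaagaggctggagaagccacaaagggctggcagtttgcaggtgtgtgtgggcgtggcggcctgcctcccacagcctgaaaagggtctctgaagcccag

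The elements were searched for on both strands as letters only. They were TGATGNAA for ATF4-C/EBP, ACANNNTGT for the glucocorticoid receptor, GAANNTTC or TTCNNGAA for heat shock factors, TGACGTCA for CREB, CACGTG (E-box) and TTANGTAA (D-box). The ATF4-C/EBP element stood in 2 of the 20 windows found for the 23 genes that rose after HSP990 (10%), against 1.97% of the 13913 windows of genes tested. In the genes with the higher change after HSP990 than after HS it stood in 0 of 6 windows. It begins 139 bases before the start in Fgf21 and 112 bases before it in Aars, in both as TTGCATCA. Trib3 held none of the 6 elements in its window. The glucocorticoid element stood in 3 of 11 windows of the genes with the higher change after HS, those of Kcna5, Adgrg1 and Usp54, against 3.85% of windows of genes tested. The heat shock element stood in 1 of those 11 windows, that of Tinagl1, and in 0 of 6 windows of the genes with the higher change after HSP990, against 10.1%. These matches are letters in a window and were not tested.

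Hsf1, the targeted gene, was counted in every Hsf1-/- library, at 27.1 and 23.1 CPM (read counts relative to the TMM-scaled size of the library) in control, 27.6 and 29.0 in HS, 28.7 and 27.5 in vehicle and 21.1 and 27.6 in HSP990 mice. In the 8 WT libraries Hsf1 lay between 52.9 and 68.6 CPM, above every Hsf1-/- library. Which exons the knockout removed was not analysed here, and neither response of Hsf1 itself was called (adjusted p = 0.797 after HS and 0.649 after HSP990). Skeletal muscle markers summed to between 188900 and 251900 CPM in the 8 libraries. Totals were 23883708 to 46599238 counts, the highest in HSP990 mouse 1. That mouse also stood apart in adipocyte markers, which summed to 2826 CPM against 1171 to 2087 in the other 7, with Adipoq at 123 CPM. In HS mouse 2, erythroid markers summed to 80.4 CPM against 10.4 to 31.2 in the other 7. Of the Hsf1-/- groups, HSP990 had the highest chi-square of counts between mice per degree of freedom, at 79.13 against 19.42 to 31.65 in the other 3. This value was computed without TMM scaling and rises with depth, and that group holds the library with the highest total. In R6/2 mice it was 110.2 in control, 106.1 in HS, 54.3 in vehicle and 100.8 in HSP990 groups. In HS mouse 1, Egr1 stood at 276 CPM against 11.2 in HS mouse 2, and Fos at 94.8 against 8.14. In vehicle mouse 2, Cish stood at 247 CPM against 8.52 in vehicle mouse 1, and Fkbp5 at 299 against 76.4. The labels do not say whether the 2 mice of a group came from separate litters.

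The responses to HS and HSP990 differed in Hsf1-/- muscle in 20 of 13754 genes tested (0.145%). Of these, 13 had the higher change after HS (0.0945%) and 7 after HSP990 (0.0509%), by edgeR's quasi-likelihood test with a threshold of 0.05 on the adjusted p. An unadjusted p under 0.05 was found in 1494 genes, of which 734 were higher after HS and 760 after HSP990. The median difference over all genes was -0.01 on the log2 scale. Scaling by library size only, which shifted that median by -0.19, left 5 genes higher after HS and 6 higher after HSP990. DESeq2, the study's tool, called 121 genes in the direction of HS (0.88%) and 58 in that of HSP990 (0.422%), with all 20 genes among them. The shifts of the 2 HS mice and those of the 2 HSP990 mice did not overlap in any of the 20 genes, as was so in 7554 of the 13754 genes tested. Leaving out 1 mouse changed the count strongly. It was 7 without control mouse 1, 3 without control mouse 2, 4 without HS mouse 1, 13 without HS mouse 2, 4 without vehicle mouse 1, 14 without vehicle mouse 2, 6 without HSP990 mouse 1 and 81 without HSP990 mouse 2. Only Trib3, Sesn2 and Arl14ep were called in each of these 8 fits.

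The responses had opposite signs in 15 of the 20 genes, against 54.7% of all genes tested. Choosing genes by the size of the difference favours opposite signs, so nothing is read from this count. The 15 were all 13 with the higher change after HS and 2 of the 7 with the higher change after HSP990. For those 13 the median was 1.16 after HS and -1.13 after HSP990 on the log2 scale. For the 7 the medians were 0.94 after HS and 4.25 after HSP990. The HSP990 response by itself was called by edgeR in 10 of the 20 genes, the HS response by itself in none. Over all genes tested, the HSP990 response called 0.167% higher and 0.0509% lower, and the HS response 0.00727%. The 20 genes were chosen on both responses, so nothing is read from these counts. The HS responses of Scai, Mcf2l and Usp54 lay just above the threshold (adjusted p = 0.0512, 0.0542 and 0.0542). DESeq2 called these HS responses (adjusted p = 4.4e-05, 4.4e-05 and 5.96e-05), but not those of Trib3, Sesn2 and Kcna5 (0.419, 0.185 and 0.0619). Over the 11071 genes with a mean of at least 1 CPM, the 2 responses had a Pearson correlation of -0.13 and a Spearman correlation of -0.123 across genes. Over all 13754 genes these were 0.00755 and -0.0816. Genes are not independent replicates, and no p is given for it. The untreated groups, control and vehicle, differed in 0 genes by edgeR, with 966 at an unadjusted p under 0.05 and a lowest adjusted p of 0.19. The 2 responses share no library, although all 24 libraries share 1 estimate of spread.

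**Figure D1:**
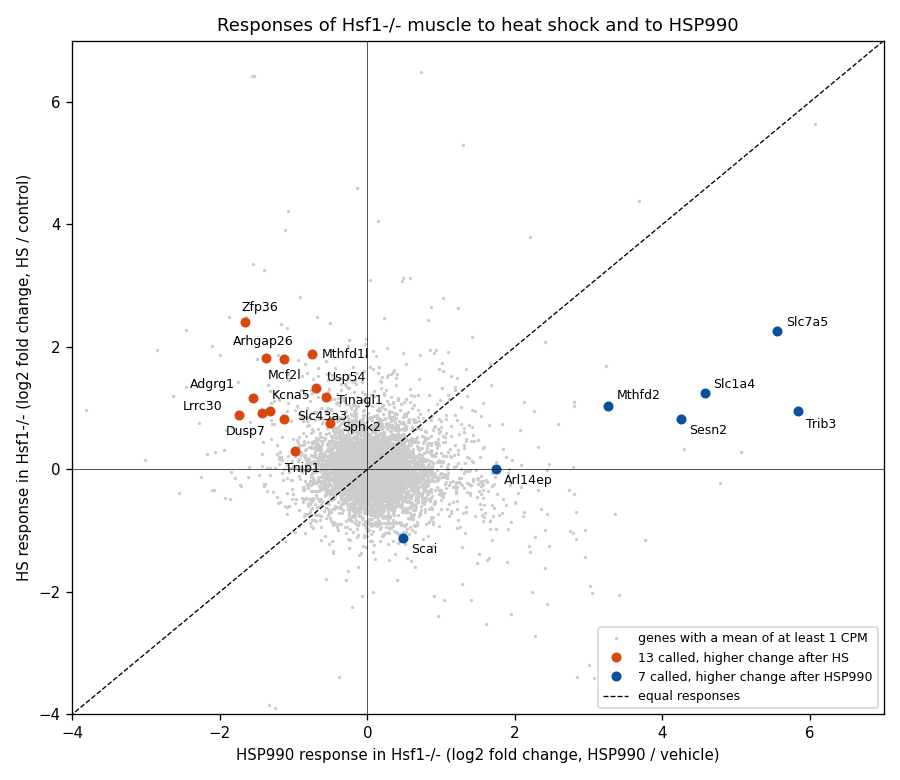
The HS response (y axis, log2 fold change of HS over control) is plotted against the HSP990 response (x axis, log2 fold change of HSP990 over vehicle) in Hsf1-/- mice, 1 point per gene with a mean of at least 1 CPM. The 13 orange genes lie above and to the left of the line of equal responses and the 7 blue genes below and to its right, and 4 genes lie outside the axes.

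Genes with the higher change after HSP990 were led by those of amino acid stress. Trib3 (chr2:152163158-152169768 in mm9) encodes a pseudokinase induced by ATF4. It stood at 2.07 and 1.56 CPM in control, 4.47 and 2.54 in HS, 1.04 and 2.57 in vehicle and 65.6 and 143 in HSP990 mice. Both HSP990 mice were above every other Hsf1-/- mouse. The HSP990 response was 5.84 ± 0.46 (SE, n = 2 mice a group) and the HS response 0.94 ± 0.43 on the log2 scale, and the difference of -4.89 ± 0.61 was called (adjusted p = 0.00173). Sesn2 (chr4:132047947-132066416), encoding a leucine sensor that restrains mTORC1, read 3.70 and 4.44 CPM in control, 8.33 and 6.00 in HS, 4.10 and 3.78 in vehicle and 57.2 and 92.4 in HSP990 mice. Its difference was -3.43 ± 0.38 (adjusted p = 0.00117), with an HS response of 0.82 that was not called (adjusted p = 0.288). Trib3 lost its call when only the 8 Hsf1-/- libraries were fitted (adjusted p = 0.0907), and Sesn2 kept its call under all 9 other settings.

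Amino acid carriers and a folate enzyme followed. Slc7a5 (chr8:124405052-124431594), the light chain of the large neutral amino acid exchanger, read 0.398 and 0.662 CPM in control, 2.53 and 2.50 in HS, 0.283 and 0.374 in vehicle and 12.8 and 18.7 in HSP990 mice. It lay higher in both HS mice than in either control, at a log2 response of 2.25 (adjusted p = 0.0542), and rose by 5.56 after HSP990. Its difference of -3.30 ± 0.63 was called narrowly (adjusted p = 0.0495). Slc1a4, a carrier of serine, alanine and other neutral amino acids, read 0.836 and 2.32 CPM in control, 4.32 and 3.06 in HS, 0.989 and 1.70 in vehicle and 23.8 and 40.9 in HSP990 mice. The difference was -3.33 ± 0.60 (adjusted p = 0.0351). Mthfd2, a mitochondrial folate enzyme, read 4.46 and 6.66 CPM in control, 12.8 and 9.85 in HS, 4.94 and 7.14 in vehicle and 51.6 and 65.1 in HSP990 mice, a difference of -2.23 ± 0.42 (adjusted p = 0.0471). All 3 were lower after HS than after HSP990 in every mouse. The calls of Slc7a5 and Mthfd2 were lost in each of the 8 fits that left out a mouse, with adjusted p up to 0.273 and 0.249, although the HSP990 response of each was called in all 8.

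The other 2 genes of this direction were not amino acid genes. Arl14ep, encoding an effector of the small GTPase ARL14, read 19.1 and 16.5 CPM in control, 18.3 and 17.3 in HS, 16.7 and 14.0 in vehicle and 47.3 and 55.3 in HSP990 mice. Its HS response was 0.00 ± 0.15 and its HSP990 response 1.74 ± 0.15, and the difference of -1.74 ± 0.21 was called (adjusted p = 0.00173) under all settings tried. Scai, encoding a cofactor that restrains the transcription of actin cytoskeleton genes, read 12.5 and 12.3 CPM in control, 5.33 and 6.16 in HS, 7.30 and 6.27 in vehicle and 9.88 and 9.02 in HSP990 mice. Both HS mice were below both controls and both HSP990 mice above both vehicle mice, with responses of -1.11 (adjusted p = 0.0512) and 0.48 (adjusted p = 0.397). The untreated groups of Scai differed by 0.88 on the log2 scale, control over vehicle.

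**Figure D2:**
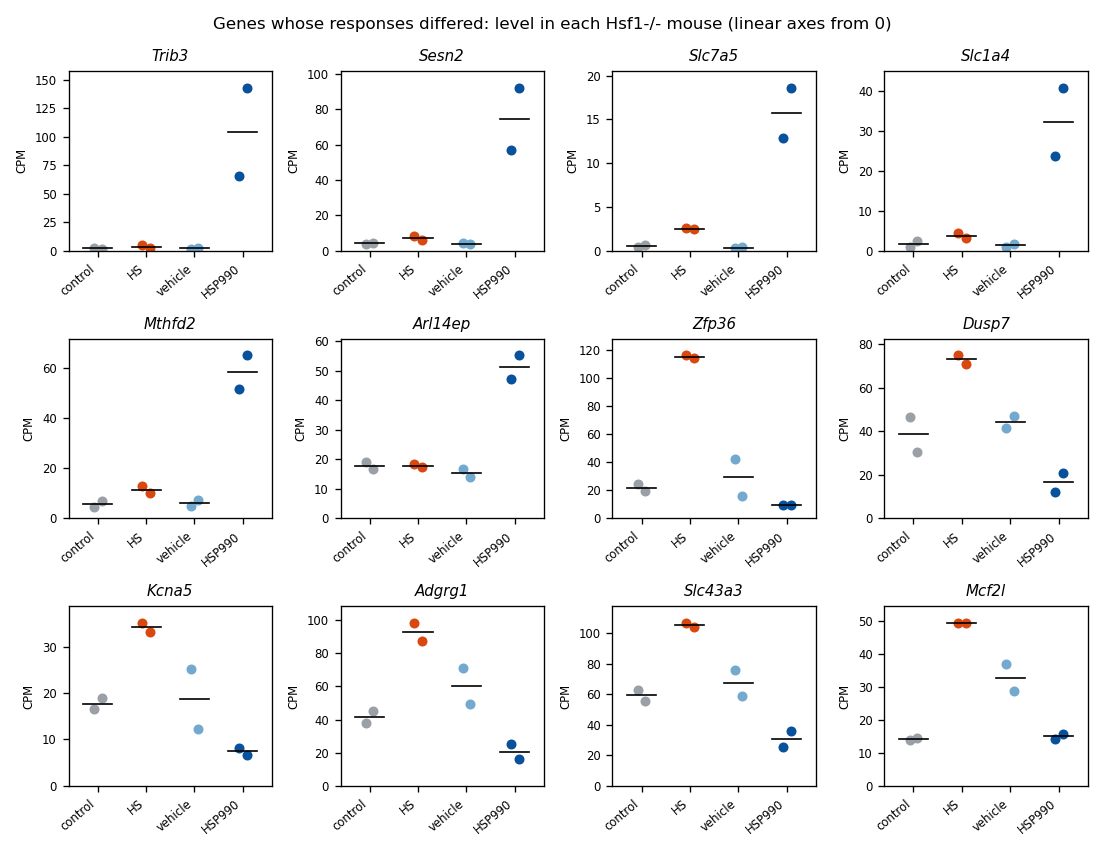
The level in CPM (y axis, linear from 0) is shown for 12 genes with a called difference in each Hsf1-/- mouse, by group (x axis), with points for mice and bars for the mean of 2 mice. Trib3, Sesn2, Slc7a5, Slc1a4, Mthfd2 and Arl14ep are highest in the 2 HSP990 mice, and the other 6 are highest in the 2 HS mice.

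Across the ATF4 list, 34 members were tested and 29 had the lower change after HS, with a median difference of -0.67 against -0.01 over all genes. Of the 34, 4 were called (Trib3, Sesn2, Slc7a5 and Mthfd2), all with the higher change after HSP990, against 0.0509% of all genes. DESeq2 called 7, all in that direction, against 0.422% of all genes. The medians of both responses were positive, 0.58 after HS and 1.11 after HSP990, and 32 of 34 members were above 0 in each. The HSP990 response called 23 genes that rose (0.167% of genes tested) and 7 that fell (0.0509%), and 11 of the 23 were on this list. Called in the HSP990 response beside the 4 were Ddit3, the stress factor CHOP, at 44.6 and 92.8 CPM in HSP990 against 8.95 and 10.96 in vehicle mice, and Psat1, an enzyme of serine synthesis, at 17.3 and 30.5 against 3.34 and 6.27. Slc7a1, a carrier of arginine and lysine, stood at 80.5 and 105 CPM after HSP990 and 9.23 and 10.5 after vehicle. In the HS arm Slc7a1 read 32.3 and 16.2 CPM after HS and 7.53 and 7.47 in control, and its difference of -1.54 was not called (adjusted p = 0.289). Atf4 itself, whose product is controlled mainly at translation, read 276 and 244 CPM in control, 273 and 254 in HS, 275 and 303 in vehicle and 400 and 451 in HSP990 mice, with a difference of -0.54 (adjusted p = 0.449). Fgf21, a stress hormone, was listed at 0 in both control mice and vehicle mouse 1, at 0.166 in vehicle mouse 2, at 0.233 and 0.159 in HS mice and at 4.90 and 7.27 in HSP990 mice. Its HSP990 response was called (adjusted p = 0.0441), and no fold is given against libraries at 0. That call was lost with only the 8 Hsf1-/- libraries fitted and with a replicate block.

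Members of the list that did not follow this direction were few. Ddit4, an inhibitor of mTORC1 that glucocorticoids also raise, read 29.5 and 46.7 CPM in control, 172 and 292 in HS, 41.2 and 8.59 in vehicle and 5.67 and 13.5 in HSP990 mice, with a difference of 4.01 ± 1.18 that was not called (adjusted p = 0.214). Atf3, a stress-induced factor, read 19.7 and 7.33 CPM in control mice, 533 in HS mouse 1 and 32.1 in HS mouse 2, and read 58.0 and 219 after HSP990. The HS response of Atf3 was not called, and its difference was 0.70 (adjusted p = 0.928). Among the 20 cytosolic aminoacyl-tRNA synthetases the median difference was -0.13 and 0 were called, against 0.145% of all genes. An unadjusted p below 0.05 was found in 2 with the higher change after HS, against 734 of all 13754 genes. In the direction of HSP990 it was found in 2, against 760 of all genes. Aars, the alanyl-tRNA synthetase, rose to 291 and 342 CPM after HSP990 from 162 and 187 in vehicle mice (adjusted p = 0.0166), against 205 and 203 in HS and 176 and 164 in control mice. Lars, the leucyl-tRNA synthetase, rose by 0.70 after HSP990 (adjusted p = 0.00447), with a difference of -0.45 that was not called (adjusted p = 0.259). Xpot, which exports tRNA from the nucleus, rose by 0.89 after HSP990 (adjusted p = 0.000466), in each of the 8 fits that left out a mouse.

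Among the 13 called genes with the higher change after HS, Zfp36, encoding tristetraprolin, which destabilises cytokine mRNAs, had the largest difference. It read 24.3 and 19.2 CPM in control, 116 and 114 in HS, 42.3 and 15.98 in vehicle and 9.27 and 9.11 in HSP990 mice. The 2 HS mice were above all others and the 2 HSP990 mice below all others. The difference was 4.07 ± 0.78 (adjusted p = 0.0499), and from 3.2 to 4.6 without 1 mouse. Neither response of Zfp36 was called by itself (adjusted p = 0.106 after HS and 0.326 after HSP990). Its difference lost its call with library size only, filterByExpr, only the 8 libraries fitted or a replicate block. Dusp7, a phosphatase of ERK, read 46.7 and 30.6 CPM in control, 75.1 and 71.2 in HS, 41.3 and 46.99 in vehicle and 12.2 and 20.8 in HSP990 mice, a difference of 2.35 ± 0.40 (adjusted p = 0.0246). Tnip1, which restrains NF-kB signalling with A20, read 50.5 and 52.7 CPM in control, 57.1 and 70.3 in HS, 79.4 and 80.4 in vehicle and 41.9 and 38.8 in HSP990 mice. Tnip1 fell after HSP990 (adjusted p = 0.0159), its HS response was 0.30 (adjusted p = 0.68), and control lay 0.63 below vehicle on the log2 scale. Its difference of 1.29 ± 0.24 (adjusted p = 0.0471) was lost in each fit without 1 mouse, as was that of Tinagl1.

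Kcna5 (chr6:126482571-126485573), a voltage-gated potassium channel, read 16.5 and 18.8 CPM in control, 35.1 and 33.1 in HS, 25.1 and 12.2 in vehicle and 8.05 and 6.70 in HSP990 mice. Its difference was 2.28 ± 0.39 (adjusted p = 0.0264). Adgrg1, the adhesion receptor GPR56, read 37.9 and 45.3 CPM in control, 98.5 and 87.7 in HS, 71.1 and 49.4 in vehicle and 25.1 and 15.9 in HSP990 mice, a difference of 2.71 ± 0.41 (adjusted p = 0.0128). Slc43a3 read 63.0 and 55.8 CPM in control, 107 and 104 in HS, 76.0 and 58.8 in vehicle and 25.6 and 36.0 in HSP990 mice, a difference of 1.96 ± 0.30 (adjusted p = 0.0128). In each of these 3 genes both HS mice were above the 6 others and both HSP990 mice below them. Adgrg1 and Slc43a3 also fell after HSP990 on their own (adjusted p = 0.0312 and 0.0295), as did Lrrc30 (0.0278), which read 174 and 137 CPM in control, 279 and 295 in HS, 260 and 157 in vehicle and 63.6 and 61.3 in HSP990 mice.

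Of the other genes in this direction, Mcf2l, a guanine nucleotide exchange factor, read 13.8 and 14.4 CPM in control, 49.2 and 49.4 in HS, 36.7 and 28.6 in vehicle and 14.2 and 15.6 in HSP990 mice. Its difference of 2.94 ± 0.47 (adjusted p = 0.0193) held an untreated gap of -1.21, control below vehicle. Arhgap26, a GTPase-activating protein, read 70.8 and 35.1 CPM in control, 234 and 138 in HS, 30.4 and 75.6 in vehicle and 24.4 and 16.5 in HSP990 mice, a difference of 3.18 ± 0.57 (adjusted p = 0.0351). Sphk2, a sphingosine kinase, differed by 1.26 ± 0.20 (adjusted p = 0.0193), with the HS mice at 9.57 and 8.34 CPM close to the vehicle mice at 8.62 and 9.34, and with control mice at 5.42 and 5.20 and HSP990 mice at 6.501 and 6.17. Usp54, of the deubiquitinase family, read 48.8 and 47.2 CPM in HS and 12.0 to 23.2 in the 6 others, a difference of 2.03 ± 0.33 (adjusted p = 0.0196). Exons of Mcf2l, Arhgap26, Sphk2 and Usp54 overlap annotated genes on the opposite strand (for Sphk2 the clock gene Dbp), as do those of Ddit3 and Aars. Arhgap26 also overlaps 9630014M24Rik on its own strand, and whether counting used the strand is not given in the sources used here.

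Mthfd1l and Mthfd2, neighbouring enzymes of the mitochondrial folate pathway, were called in opposite directions. Mthfd1l read 1.31 and 0.851 CPM in control, 4.12 and 3.89 in HS, 0.895 and 1.08 in vehicle and 0.630 and 0.526 in HSP990 mice, a difference of 2.63 ± 0.49 (adjusted p = 0.0471). Its call was lost in each fit without 1 mouse, with adjusted p from 0.0579 to 0.249, the same range as for Mthfd2.

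The chaperone genes, the targets that define the heat shock response, showed no called difference. Of 40 cytosolic chaperones and co-chaperones tested, 0 were called by edgeR, 0 by DESeq2 and 0 had an unadjusted p below 0.05. Over all 13754 genes, edgeR called 0.145%, and DESeq2 0.88% in the direction of HS and 0.422% in that of HSP990. An unadjusted p below 0.05 was found in 1494. At the shares called, few or no calls are expected among 40 genes, so 0 called is not read as a result. The chaperone medians were 0.05 after HS, 0.08 after HSP990 and -0.05 for the difference, against -0.01 over all genes. Hspa1b, an inducible HSP70, read 1.27 and 1.18 CPM in control, 1.21 and 0.914 in HS, 4.14 and 2.66 in vehicle and 3.19 and 3.85 in HSP990 mice. Hspa1a, its near-identical neighbour, read 3.34 and 2.13 CPM in control, 3.00 and 1.91 in HS, 3.77 and 3.36 in vehicle and 4.93 and 9.15 in HSP990 mice, with a difference of -1.13 ± 0.84 (adjusted p = 0.677). Reads of this pair may have been split between them, and Hspb1 and Hsp90aa1 also have near-identical copies in mm9. In WT mice Hspa1a reached 961 and 1063 CPM after HS and 2950 and 2777 after HSP990, from 3.37 and 11.1 in control and 28.6 and 16.2 in vehicle mice.

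Dnajb1, the HSP40 partner of HSP70, read 8.56 and 6.52 CPM in control, 8.83 and 8.70 in HS, 8.00 and 9.13 in vehicle and 8.80 and 6.96 in HSP990 mice. All 8 Hsf1-/- values of Dnajb1 lay within a narrow range, and its difference was 0.33 ± 0.44 (adjusted p = 0.847). Hspb1, a small heat shock protein, read 17.1 and 14.8 CPM in control, 27.2 and 16.4 in HS, 20.3 and 23.2 in vehicle and 17.3 and 32.0 in HSP990 mice. The treated groups of Hspb1 overlapped (difference 0.28 ± 0.57). Hsp90ab1, the constitutive HSP90, read 1067 and 884 CPM in control, 1180 and 1026 in HS, 1169 and 1093 in vehicle and 948 and 1004 in HSP990 mice (difference 0.39 ± 0.19, adjusted p = 0.49). Hsp90aa1, the inducible form, read 8.20 and 8.65 CPM in control, 10.0 and 8.07 in HS, 6.45 and 7.02 in vehicle and 13.0 and 9.46 in HSP990 mice, with a difference of -0.64 ± 0.35 (adjusted p = 0.542). Hspa13 had the lowest unadjusted p of the 40, with a difference of -0.74 (adjusted p = 0.471). The 5 heat shock factors and their binding protein had a median difference of 0.08 and 0 called, with Hsf2 at -0.17 ± 0.29 (adjusted p = 0.888).

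Other chaperone systems had medians near 0. The 8 subunits of the cytosolic chaperonin had a median difference of 0.12, the 13 mitochondrial chaperones and proteases -0.10 and the 29 chaperones and factors of the endoplasmic reticulum -0.04. None of these had a called gene by edgeR or DESeq2, and at the shares called over all genes few or none are expected. Cct5, Dnajc19 and P4hb had the lowest unadjusted p in these lists, with differences of 0.24 (adjusted p = 0.532), 0.57 (adjusted p = 0.316) and 0.26 (adjusted p = 0.47).

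**Figure D3:**
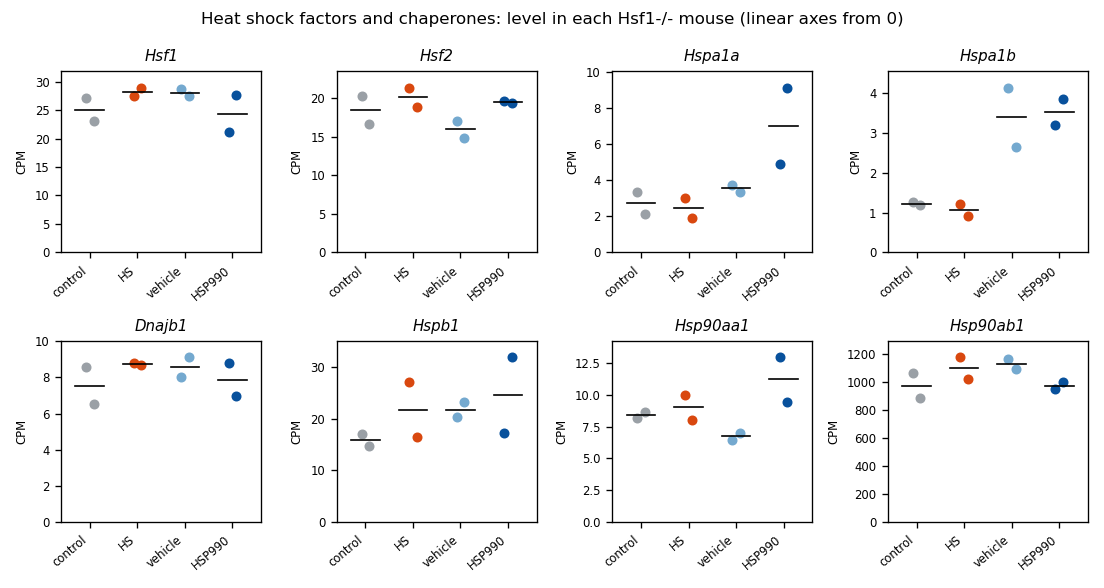
The level in CPM (y axis, linear from 0) of 2 heat shock factors and 6 chaperones is shown in each Hsf1-/- mouse, by group (x axis), with points for mice and bars for the mean of 2 mice. Hsf1 stays between 21.1 and 29.0 CPM, Dnajb1 between 6.52 and 9.13 CPM, and no chaperone has a called difference.

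Glucocorticoid-responsive genes had the highest median difference of the 30 gene lists. Without vehicle mouse 1, however, it was 1.11, against 1.56 for the metallothionein and zinc list. Of 29 tested, 27 had the higher change after HS, with a median of 1.23, against -0.01 over all genes. The median was 0.91 after HS, where 29 of 29 were above 0, and -0.52 after HSP990, where 25 were below 0. In this list 0 genes were called by edgeR, against 0.145% of all genes. An unadjusted p below 0.05 with the higher change after HS was found in 17, against 734 of all 13754 genes. DESeq2 called 7, against 0.88% of all genes. Arrdc2 read 95.4 and 48.3 CPM in control, 330 and 364 in HS, 210 and 51.2 in vehicle and 19.9 and 27.6 in HSP990 mice, with a difference of 4.73 ± 0.95 (adjusted p = 0.0681). Without vehicle mouse 2, without filtering, and without the libraries of R6/2 mice, the difference of Arrdc2 was called. Fkbp5, a cochaperone of the glucocorticoid receptor, read 278 and 190 CPM in control, 293 and 324 in HS, 76.4 and 299 in vehicle and 61.2 and 99.1 in HSP990 mice, so 1 vehicle mouse lay at the level of the HSP990 mice and the other at that of the HS mice. Cebpd, a transcription factor, read 48.7 and 68.2 CPM in control, 161 and 154 in HS, 46.1 and 11.2 in vehicle and 8.44 and 8.54 in HSP990 mice, a difference of 3.18 (adjusted p = 0.117).

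Metallothioneins bind zinc, and glucocorticoids raise them. The list of metallothioneins, zinc carriers and the factor Mtf1 had a positive median. Its members Mt1 and Mt2 are on the glucocorticoid list too, so the medians of these lists are not independent. Mt2 read 14.3 and 8.65 CPM in control, 154 and 82.2 in HS, 4.05 and 21.4 in vehicle and 5.24 and 3.37 in HSP990 mice, with a difference of 4.91 ± 1.31 (adjusted p = 0.155). Both HS mice were far above the 6 others. Over the 8 genes of the list the median was 1.17, and it ran from 0.54 without vehicle mouse 2 to 1.56 without vehicle mouse 1. Of muscle atrophy genes, 14 of 17 had the higher change after HS (median 0.45, but 0.25 without vehicle mouse 2 or with library size only). Trim63, Fbxo32, Foxo1 and Foxo3 stand on both this list and the glucocorticoid list. Trim63, the ubiquitin ligase MuRF1, read 324 and 247 CPM in control, 730 and 531 in HS, 431 and 323 in vehicle and 239 and 256 in HSP990 mice, with a difference of 1.75 (adjusted p = 0.175). Nfil3, a clock-linked repressor on the list of 20 circadian clock genes, differed by 1.85 (adjusted p = 0.257). That list had a median difference of -0.16, with 9 members higher after HS and 11 higher after HSP990. An unadjusted p below 0.05 was found in 2 members in each direction. On this list 0 were called, and at the 0.145% called over all genes few or none are expected, so this is not read as a result.

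Immediate early and cytokine genes had positive medians that rested in part on 1 HS mouse. Of 29 immediate early genes, 23 had the higher change after HS, with 1 called (Zfp36), against 0.0945% of all genes. Their median was 0.56, or -0.06 without HS mouse 1 and 0.79 without HS mouse 2. Of 27 genes of cytokine signalling, 20 had the higher change after HS, with a median of 0.60, or 0.30 without HS mouse 1. Of the 27, 0 were called, and at the 0.145% called over all genes few or none are expected. Il1r1, the interleukin 1 receptor, read 11.6 and 13.0 CPM in control, 35.2 and 26.0 in HS, 15.9 and 17.3 in vehicle and 13.0 and 10.0 in HSP990 mice, with a difference of 1.84 ± 0.37 (adjusted p = 0.0681). Neutrophil markers were near 0, summing to 0.614 to 5.76 CPM, with the 2 HS mice highest at 3.77 and 5.76, and macrophage and leukocyte markers summed to 86.8 and 97.4 CPM in HS mice, against 51.6 to 83.7 in the 6 others. Their part in the cytokine values was not tested.

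The HS response by itself called 1 gene (0.00727%), with 1211 at an unadjusted p below 0.05 and 161 by DESeq2. By edgeR 28 genes were called with no filter, and 51 without the R6/2 libraries, a fit added after the data had been seen. The 1 gene of the main fit was Ppargc1a, the coactivator PGC-1α of mitochondrial genes. It read 31.7 and 39.4 CPM in control, 441 and 178 in HS, 26.3 and 20.6 in vehicle and 45.7 and 23.7 in HSP990 mice. Its HS response was 3.12 ± 0.42 (adjusted p = 0.0162). The HSP990 response was 0.57 (adjusted p = 0.698), and the difference of 2.55 ± 0.56 was not called (adjusted p = 0.105). The call of Ppargc1a was lost without control mouse 1, control mouse 2 or HS mouse 1, with only the 8 libraries fitted (adjusted p = 0.0924) and with a replicate block (adjusted p = 0.0534). The HS count became 30 without HS mouse 2, 12 without HSP990 mouse 1, 9 without HSP990 mouse 2, and 0 without control mouse 1 or 2. No gene was called in both responses by edgeR, and DESeq2 called 10 in both, 6 of them in the same direction. Among these 6, which were seen only after the values were known, Nr4a3, an orphan nuclear receptor, read 142 and 63.0 CPM in HS against 8.12 and 6.52 in control, and 27.1 and 22.5 in HSP990 against 6.64 and 4.19 in vehicle mice. Edn1 (endothelin 1), Fam107b, Fut1, Slc7a1 and Slc7a5 were the other 5.

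The HSP990 response called 30 genes, and in 24 of them the HS response was under 0.5 times its size. The 23 that rose had a median of 1.91 after HSP990 and 0.29 after HS, and 21 of them were above 0 after HS too. The 7 that fell had a median of -1.55 after HSP990 and 0.30 after HS. All 30 were chosen on their HSP990 response, which favours a smaller HS response, so nothing is read from these sizes. Klf2, a flow-responsive transcription factor of endothelium, read 50.1 and 22.3 CPM in vehicle and 7.15 and 4.99 in HSP990 mice, against 30.3 and 35.6 in control and 22.9 and 27.7 in HS mice. Timp4, an inhibitor of metalloproteinases, read 59.8 and 57.7 CPM in vehicle and 10.9 and 13.9 in HSP990 mice, against 62.8 and 52.2 in control and 57.4 and 48.0 in HS mice. Both fell after HSP990 (adjusted p = 0.00477 and 0.00447), while their differences of 2.18 and 2.13 were not called (adjusted p = 0.117 and 0.0858). The HSP990 call of Klf2 was lost without vehicle mouse 1 and that of Timp4 without HSP990 mouse 1. Endothelial markers summed to 586 and 611 CPM in vehicle and 663 and 619 in HSP990 mice. The HSP990 count was 11 without vehicle mouse 1, 16 without HSP990 mouse 1 and 146 without HSP990 mouse 2, with 142 by DESeq2.

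Slow fibre genes had the lowest median difference of the 30 gene lists, and their untreated levels differed between the arms. Myh7, the slow myosin heavy chain, read 142 and 244 CPM in control, 42.7 and 15.9 in HS, 10.5 and 3.53 in vehicle and 1.44 and 66.5 in HSP990 mice. The control mice were above all others, and the 2 HSP990 mice lay at both ends of the rest. The 16 genes had a median of -1.51, with 0 called by edgeR and 0 by DESeq2. Over all genes these called 0.145%, and 0.422% in the direction of HSP990, so few or none are expected. Of the 16, 7 had an unadjusted p below 0.05 with the higher change after HSP990, against 760 of all 13754 genes. Without HSP990 mouse 2 the median was -0.40, above the -0.45 of the ATF4 list. For Myh7 the untreated gap was 4.80 on the log2 scale, control over vehicle, against a difference of -4.99 ± 2.17 (adjusted p = 0.422). In a piece of muscle, the share of slow fibres and the RNA of each fibre cannot be told apart. Atp2a2, the slow calcium pump, differed by -1.50 (adjusted p = 0.267), and Myoz1, of fast fibres, by 0.50 (adjusted p = 0.321), in a list of 17 with a median of 0.40.

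The remaining lists had medians between -0.20 and 0.49 and few called genes. Of 24 genes of MAPK feedback, 1 was called (Dusp7). Of 20 p53 targets 1 was called (Sesn2, also on the ATF4 list). Over all genes tested 0.145% were called, so few or no calls are expected in a list. Neither 1 called nor 0 called is read as a result about a list. Lists with 0 called by edgeR had these members with the lowest unadjusted p: Nfe2l2 for NRF2 (-0.93, adjusted p = 0.141), Psmd8 for the proteasome (0.80, adjusted p = 0.141), Map1lc3b for autophagy (0.48, adjusted p = 0.219), Sesn1 for insulin signalling (2.19, adjusted p = 0.129) and Timp3 for collagens and matrix (0.84, adjusted p = 0.222). The same held for Azin1 for polyamines (-0.85, adjusted p = 0.321), Bmpr2 for BMP signalling (-0.64, adjusted p = 0.444), Ifit2 for interferon (-1.14, adjusted p = 0.402), Cnn3 for the actin cytoskeleton (0.55, adjusted p = 0.422), Chrnb1 for the neuromuscular junction (0.65, adjusted p = 0.445) and Tubb3 for tubulins, at 0.520 CPM or lower in all 8 mice. Of 31 proteasome genes, 26 had the higher change after HS (median 0.21), and with library size only that median was 0.01.

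**Figure D4:**
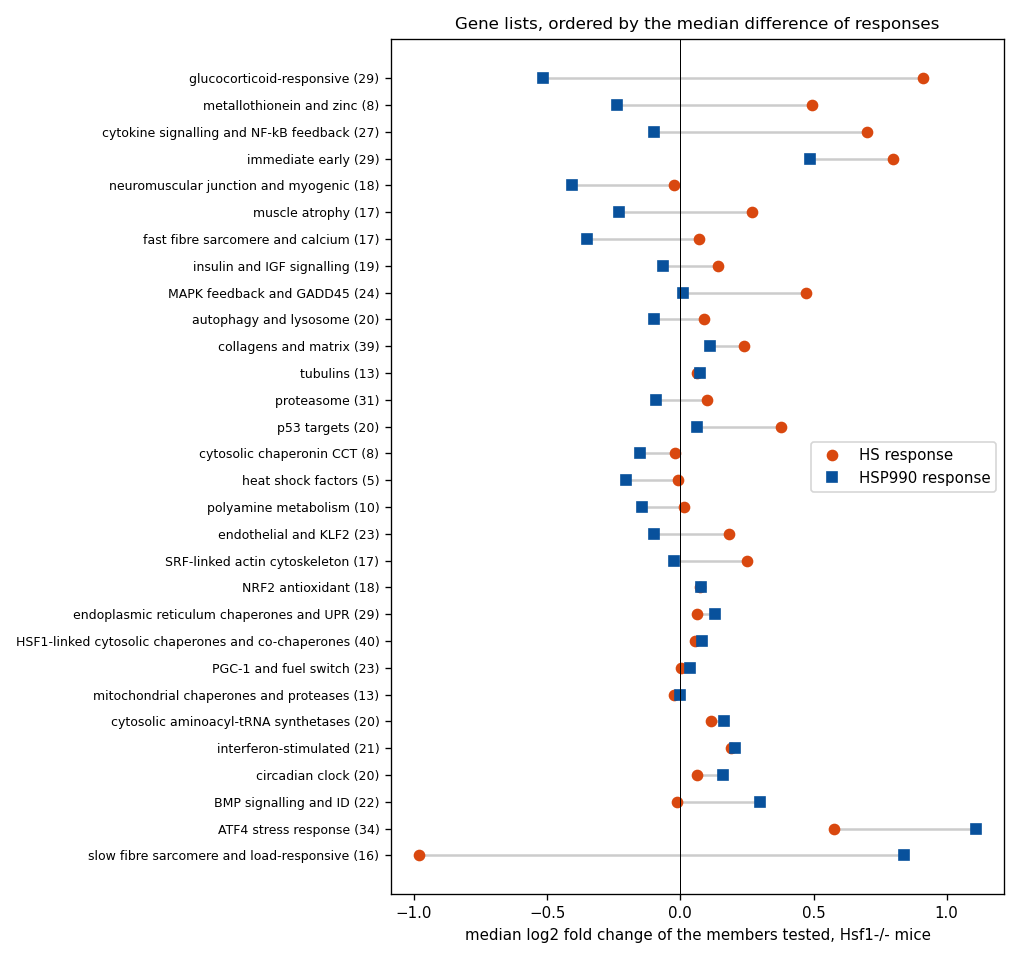
The median log2 fold change (x axis) of the tested members of 30 gene lists (rows, with the number tested) is shown for the HS response (circles) and the HSP990 response (squares) of Hsf1-/- mice. Glucocorticoid-responsive genes run from -0.52 after HSP990 to 0.91 after HS, slow fibre genes from 0.84 to -0.98, and the 40 chaperones lie at 0.08 and 0.05.

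When the same contrast was compared between Hsf1-/- and WT mice, 0 genes passed edgeR's test. That test, on 13754 genes, gave 860 genes at an unadjusted p below 0.05, 18 called by DESeq2 and a lowest adjusted p of 0.079 by edgeR. WT mice had 328 genes with a called difference of responses (2.38%), 182 of them with the higher change after HS. Of the 182, 175 were above 0 in Hsf1-/- mice too, with medians of 2.16 in WT and 1.13 in Hsf1-/-. Of the 146 with the higher change after HSP990, 130 were below 0 in Hsf1-/-, with medians of -1.61 and -0.58. Over all genes tested, 61.5% had the same sign in both genotypes. The 328 genes were chosen on their WT values, so the lower Hsf1-/- medians are no comparison of genotypes. Of the 20 Hsf1-/- genes, 11 were called in WT in the same direction, 10 of them with the higher change after HS. The median differences of glucocorticoid-responsive genes were 1.23 in Hsf1-/- and 2.52 in WT, and 21 of 29 were called in WT. In WT the HS arm lacked Y-linked transcripts that the HSP990 arm expressed, while all 8 Hsf1-/- mice expressed them, at 163 to 230 CPM summed, so genotype cannot be told apart from sex and age here.

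Genes of amino acid stress and a chaperone had low p-values in that test. Trib3 read 4.29 and 3.08 CPM in WT HSP990 mice and 2.77 and 2.37 in WT vehicle mice, far under the 65.6 and 143 of Hsf1-/- HSP990 mice. The difference of responses of Trib3 was 0.11 in WT and -4.89 in Hsf1-/-, a gap of -5.01 (adjusted p = 0.079 by edgeR and 1.1e-05 by DESeq2). Sesn2 read 9.33 and 6.06 CPM in WT HSP990 mice and 5.05 and 5.39 in WT vehicle mice, a gap of -2.89 between genotypes (adjusted p = 0.128 by edgeR and 0.000778 by DESeq2). Dnajb1 read 25.6 and 61.9 CPM in WT HS and 327 and 315 in WT HSP990 mice, against 6.52 to 9.13 in all Hsf1-/- mice. Its difference was -2.74 in WT and 0.33 in Hsf1-/- (adjusted p of the gap = 0.212 by edgeR and 0.00101 by DESeq2). Of the 7 genes with the higher change after HSP990, 5 were below 0 in WT and 1 was called there, Scai, at -1.18.

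**Figure D5:**
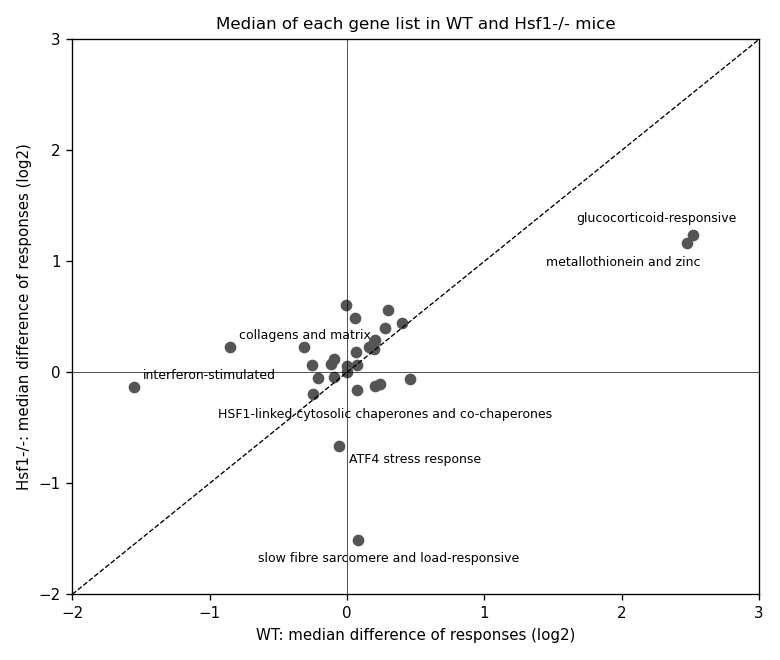
The median difference of responses (log2, HS response minus HSP990 response) of each of the 30 gene lists in Hsf1-/- mice (y axis) is plotted against that in WT mice (x axis), with the line of equal values dashed. Glucocorticoid-responsive genes lie at 1.23 and 2.52, the ATF4 list at -0.67 and -0.06, slow fibre genes at -1.51 and 0.08, and interferon-stimulated genes at -0.13 and -1.55.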

How the data were processed

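The authors sequenced muscle RNA of 24 mice as strand-specific, polyA-selected paired reads. Reads were mapped to mm9 with Bowtie, and the deposited values are raw counts per gene, not normalized by the authors. The counting program and annotation are not given in the sources used here. Of 18669 genes, keyed by NCBI gene number, 18594 were matched to a symbol and 18278 to an mm9 position. All 24 columns were used.

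The 13754 genes that passed the filter of the study (2 or more counts in 10 or more libraries) were tested. Counts were TMM-scaled and fitted as 12 groups of 2 mice with edgeR 4.0.16 (limma 3.58.1, R 4.3.3) by its quasi-likelihood test on 12 residual degrees of freedom, adjusted by Benjamini-Hochberg over the genes of each contrast, with calls at 0.05. Every adjusted p is from this test unless DESeq2 1.42.0 is named. For single mice 0.5 CPM was added before taking log2. An exact permutation test of 2 against 2 mice cannot go below a two-sided p of 0.333. Counts between mice of a group varied more than counting error. The p-values and SEs rest on the spread between the 2 mice of a group, pooled over all 12 groups, WT and R6/2 included. They measure no spread beyond these 24 mice. The procedure was tested on simulated data.

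Named were Hsf1, Hsf2 and 6 chaperones, the 10 called genes with the highest and the 10 with the lowest difference (mean of at least 1 CPM, mice of the 2 treatments apart), of each list up to 3 called members or else that with the lowest unadjusted p, up to 8 genes called in both responses and up to 6 called between genotypes. Others were chosen after their values were seen. The mice, lists and tests were chosen with earlier results of these data known. Near-identical copies were searched for in mm9 with minimap2 2.31. Promoters came from RefSeq (GRCm38.p6). The replicate numbers share no source in the labels. The alternatives tried are given at the end of the text.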

Additional observations from a re-analysis of the deposited data

How the results depend on the processing

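Counts of called genes depended on the fit, and no named gene with a call changed direction under any alternative. For the difference of responses in Hsf1-/- mice (20 genes, 13 higher after HS and 7 after HSP990), library size only gave 11 (5 and 6), no filter 29 (21 and 8), only the 8 libraries compared 14 (12 and 2), DESeq2 on 24 libraries 179 (121 and 58), DESeq2 on the 8 libraries 225 (147 and 78), and a fit without the R6/2 libraries, added after the data had been seen, 55 (40 and 15). Leaving out each mouse gave 3 to 81 genes in all, 0 to 36 higher after HS and 3 to 45 after HSP990. The HS response (1 gene) gave 6 with RLE size factors, 28 without a filter, 9 on the 8 libraries, 161 and 227 by DESeq2, 51 without the R6/2 libraries and 0 to 30 without 1 mouse. The HSP990 response (30 genes) gave 142 and 164 by DESeq2 and 11 to 146 without 1 mouse. The comparison with WT (0 genes) gave 2 on the 16 libraries compared, which is the same fit as without the R6/2 libraries (2), 18 and 64 by DESeq2 and 0 to 1 without 1 mouse. The cause was not tested. With a replicate block the counts were 13 (8 and 5) for the difference, 2 for HS, 26 for HSP990 and 1 for the comparison with WT. The numbers were not shown to pair the mice, since deviations of same-numbered mice had r of 0.184 in the HS arm and -0.0657 in the HSP990 arm. RLE size factors and filterByExpr left the other counts within 1.5 times. Of 51 calls of single genes, recomputed in 867 fits, 238 were no longer called, 629 were kept and 0 reversed. Y-linked expression as a covariate was not run, because it is constant within a genotype and arm. Some genes, such as Fgf21, had few counts, and each group had 2 mice. How far depth or group size limited the calls was not tested.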

Other observations

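Among genes outside the named set, chosen after their values were seen, Cish and Socs1, inhibitors of cytokine signalling through STAT5, lay low in both HS mice. Cish read 7.003 and 7.67 CPM after HS and 107 and 105 in control mice, and 8.52 and 247 in vehicle and 43.9 and 57.5 in HSP990 mice. Socs1 read 0.467 and 0.755 CPM after HS and 4.06 and 14.3 in control mice, with the vehicle mice at 0.989 and 12.3. Neither difference was called (adjusted p = 0.635 for Cish and 0.437 for Socs1, edgeR).

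Xirp1, an actin-binding protein of stressed muscle, read 2084 CPM in HS mouse 1 and 413 in HS mouse 2, against 295 and 261 in control mice, and 1071 in HSP990 mouse 2 against 436 in HSP990 mouse 1. Ccl2, a monocyte chemokine, read 14.1 CPM in HS mouse 1 and 2.19 in HS mouse 2, and at most 0.765 in the 6 others, with a difference of 4.74 (adjusted p = 0.141).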
